A study of Homo sapiens with 4 samples.

Results

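The response of PC3 cells to an shRNA against ALKBH3 was examined at the earlier of the time points measured, 48 h. PC3 is a human prostate cancer cell line, and the cells had been infected with lentivirus carrying either the ALKBH3 shRNA or a control shRNA, which by the study's methods was directed against GFP. RNA was collected 48 h or 96 h into puromycin selection, so infection and selection were common to all arrays, and each combination of shRNA and time was hybridised to 1 single-colour Agilent array. The members described here are the 2 arrays labelled 48 h, of 4 arrays in all, chosen by that label alone. Which ALKBH3 shRNA sequence was used is not in the labels, and nothing says how many cultures each RNA came from.

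Both 48 h arrays lay on 1 slide and both 96 h arrays on another, so the shRNAs were compared within a slide, whereas slide and time point cannot be told apart. With 1 array per shRNA and time there is no replicate error and no test across samples. A signal is given as log2 of the processed intensity relative to the array's own 75th percentile, a difference is ALKBH3 shRNA minus control shRNA, and a difference of 1 is a 2-fold change. Repeated spots of a probe on the same array gave a spot standard error, which covers the noise of spots only and not that of cultures, RNA preparation or labelling. A gene is called changed here when it differed by at least 2-fold. Where 1 of both arrays was not well above background, the call used a bound, written "at least". In it the dim array stood at the higher of its own signal and the lowest signal well above background on that array. Where its own signal was the higher, the bound equals the measured difference. No bound allows for spot noise, so the true difference may be smaller. On the 48 h arrays signal was well above background for 68.5% of the probes (control) and 69.0% (ALKBH3 shRNA), and replicate spots differed with a median SD of 0.089 and 0.087 on the log2 scale.

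ALKBH3 belongs to the AlkB family of dioxygenases, which remove methyl groups from alkylated bases in DNA and RNA. Many of the genes below belong to the interferon response: foreign or misplaced nucleic acid is recognised by sensors such as RIG-I and TLR3, interferons are secreted, and their receptors activate STAT transcription factors, which with IRF9 bind the interferon-stimulated response element (ISRE) in promoters of antiviral genes. Interferon-gamma acts largely through STAT dimers at the GAS element.

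In what follows, paired signals are those of the control array and then the ALKBH3 shRNA array. ALKBH3 itself stood at -0.74 and -2.48 at 48 h and at -0.89 and -2.41 at 96 h. Its 48 h difference was -1.74 (spot standard error 0.12), and a further ALKBH3 probe differed by -2.03. None of the other 13 AlkB family and alkylation repair genes tested was called, which is near the background, since 2.12% of all genes were called. Keratins KRT8 and KRT18 and the intermediate filament gene VIM were well above background on all 4 arrays, while KLK3, which encodes prostate-specific antigen and which PC3 cells are known to lack, was on none. The prostate protease gene KLK2 was well above background on all 4 arrays, between -5.62 and -5.15. Of 11 tested genes of the PC3 and prostate identity list 2 were called, both higher: ACP3, which encodes prostatic acid phosphatase, at -5.76 and -4.38, and FOLH1, which encodes prostate-specific membrane antigen, at least 1.40 higher at -7.59 and -5.45, with the control array not well above background. The prostate homeobox gene HOXB13 was not called, with a difference of -0.77 at 48 h and -0.83 at 96 h. Of 11 blood and stromal marker genes that could be tested 1 was called, LUM, a proteoglycan gene of stroma, at -5.00 and -3.01 at 48 h and at -6.19 and -4.21 at 96 h. PTPRC and CD3E, which define leukocytes and T cells, differed by -0.08 and 0.14 at 48 h. In such bulk RNA, fewer cells of a type and less RNA per cell cannot be told apart.

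At 48 h 271 genes were at least 2-fold higher with ALKBH3 shRNA and 45 at least 2-fold lower, of 14914 genes tested. These are 1.82% and 0.302% of the genes, and 2.12% together. The median difference over all genes was -0.01, the middle 95% of genes lay between -0.56 and 0.95, and the median spot standard error was 0.12. Of the higher genes 219 were measured on both arrays and 52 rested on a bound, and 238 of the 271 exceeded 3 spot standard errors, as did 43 of the 45 lower genes. At least 4-fold differences numbered 46 upward and 1 downward. The call is a line through a continuous range: ARSI, EMID1 and CCN5 stood just inside it, by 0.0009, 0.0025 and 0.0030, and TAP2, DOK1 and UCA1 just outside at 0.99, 0.99 and 0.98. On the lower side RTN4R, NUMBL and DIXDC1 stood inside by 0.0011, 0.0061 and 0.0068, and PLAT, MTURN and KRT15 outside by 0.0015, 0.0136 and 0.0250. Among the higher genes 45 had other tested probes, and of these 50 probes 49 had the same sign and 24 were also 2-fold higher. For 13 lower genes all 16 other probes had the same sign and 6 were 2-fold lower.

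**Figure D1:**
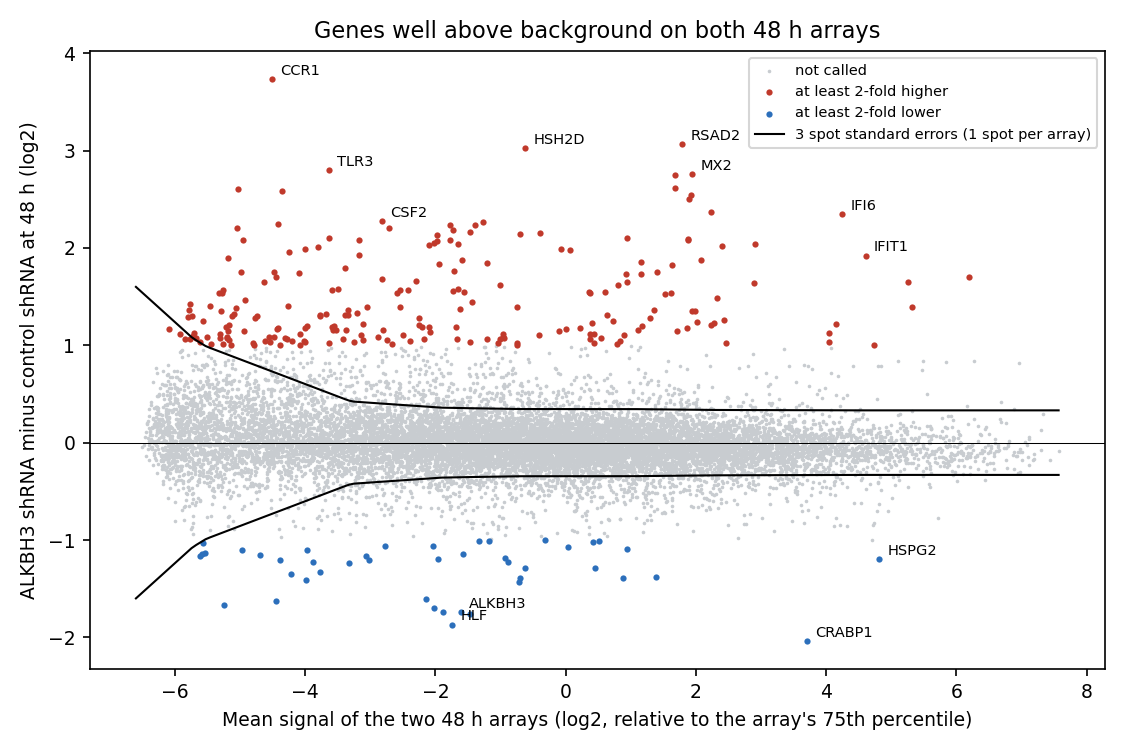
Each point is a gene well above background on both 48 h arrays, with its mean signal (log2, relative to the 75th percentile of the array) on the x axis and its 48 h difference (log2, ALKBH3 shRNA minus control shRNA) on the y axis; black lines mark 3 spot standard errors for a gene with 1 spot per array. The 219 higher genes drawn in red outnumber the 44 lower genes in blue and span the whole range of signal, and IFI6 and IFIT1 lie at 2.35 and 1.92 toward the right.

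To show a sequence that some of the higher genes share, promoters were searched on both strands for the core of the ISRE. The core is GAAA, any 2 bases and GAAA. Promoters came from the RefSeq table of GRCh38.p14, from 250 bases before to 50 after each gene's start. The table held promoters of 204 of the 271 higher genes and of 37 of the 45 lower genes. The core was present in 44 of the 204 promoters (21.6%) and in 0 of the 37, against 358 of 11860 promoters of all genes tested (3.02%) and 996 of 27305 promoters in the whole table (3.65%). In the list of interferon-induced antiviral effectors it was present in 31 of 49 promoters (63.3%). Of the 5 marker genes, BST2 and CXCL10 held the core, RSAD2 held none in this window, and MX2 and OASL were not in the table. Of the 20 largest rises 12 had a promoter in the table, and 5 of these 12 held the core. Windows are shown only where the core was present. They are from BST2 and CXCL10, from 4 of the genes with the largest rises and from 3 genes whose difference was found at 48 h and not at 96 h. Each window is 30 bases, written 5′ to 3′ on the strand that carries the core, with the core in capitals.
BST2 (chr19:17405741-17405770, minus strand): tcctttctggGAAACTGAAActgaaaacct
CXCL10 (chr4:76023699-76023728, minus strand): tcatgttttgGAAAGTGAAAcctaattcac
TLR3 (chr4:186069142-186069171, minus strand): cggcactctcGAAAGTGAAAgtaaagcttg
CD274 (chr9:5450324-5450353, minus strand): aaatgaaacaGAAAGTGAAAcatgtcagtc
IFI44 (chr1:78649761-78649790, minus strand): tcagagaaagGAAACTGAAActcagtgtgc
IFI6 (chr1:27672329-27672358, minus strand): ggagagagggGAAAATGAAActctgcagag
TNFSF10 (chr3:172523598-172523627, plus strand): ggaaaggaggGAAACTGAAAgaagctcctc
LRRC31 (chr3:169869951-169869980, minus strand): taaaaaaacaGAAAAAGAAAggtggtgcgg
PARP14 (chr3:122680800-122680829, plus strand): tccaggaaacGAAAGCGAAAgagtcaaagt
BST2 and CD274 held 2 overlapping matches and IFI6 held 3 separate ones. A palindromic form of the GAS element, TTCNNNGAA, was present in 15.2% of promoters of higher genes, 10.8% of lower genes and 6.55% of all genes tested, and a kB site (GGGA, any base and TTTCC) in 2.94%, 0% and 0.599%. Of the promoters tested 41 held both the ISRE core and the palindrome, in 7 of them at overlapping positions. A match of letters is a description of the window and not of binding.

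The antiviral effectors formed the group with the highest median. Of 61 genes of this list tested, 44 were higher and 0 lower at 48 h, with a median difference of 1.64 beside -0.01 for all genes. At 96 h 11 of them were 2-fold higher and the median was 0.59, and 58 of the 61 differences were larger at 48 h than at 96 h. The marker genes had been chosen for the interferon response and are given as values. RSAD2, which encodes the antiviral enzyme viperin, stood at 0.26 and 3.32 at 48 h and at -0.57 and 0.88 at 96 h. Its 48 h difference was 3.06, or 8.35-fold, with an interval from spot noise alone of 2.84 to 3.29. MX2, a dynamin-like GTPase that restricts viruses, stood at 0.56 and 3.32 at 48 h and at 0.01 and 1.37 at 96 h. In both genes the ALKBH3 shRNA array at 48 h was the highest of the 4, and the 96 h arrays kept a difference of about 1.4.

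OASL, a relative of the oligoadenylate synthetases, stood at 0.31 and 3.06 at 48 h and at -0.29 and 0.88 at 96 h. BST2 (tetherin), which holds budding virus at the cell surface, stood at 0.37 and 2.99 at 48 h and at -0.48 and 0.33 at 96 h. BST2 with ALKBH3 shRNA was thus, at 96 h, below the level of the control array at 48 h, although the difference within the 96 h slide was still 0.81. CXCL10, a chemokine that draws T cells, was well above background only with ALKBH3 shRNA. It stood at -6.58 and -3.74 at 48 h and at -7.46 and -6.08 at 96 h. Its 48 h control signal lay above the lowest signal well above background, -6.85, so the bound equals the measured difference. That difference was 2.84, or 7.18-fold, with an interval from spot noise alone of 2.04 to 3.64.

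Among the other large rises of this list, IFI44, CMPK2 and LAMP3 differed by 2.54, 2.51 and 2.37 at 48 h and by 1.18, 0.97 and 1.07 at 96 h. IFI6, an interferon-induced protein of mitochondria and the endoplasmic reticulum, stood at 3.07 and 5.42 at 48 h and at 2.90 and 4.13 at 96 h. MX1 stood at 4.43 and 6.09 at 48 h and at 3.62 and 4.78 at 96 h. The members that were not called included ISG15 (0.82), IFITM2 (0.83), IFITM3 (0.84), SAMHD1 (0.81) and ADAR (0.68). Of the 61 members 2 were negative, the cytidine deaminase genes APOBEC3F (-0.46) and APOBEC3G (-0.21). The ubiquitin-like modifier ISG15 went from 6.56 to 7.38 at 48 h and from 5.95 to 6.66 at 96 h, one of the smaller differences of the list. IFITM genes are near-identical in sequence, and their probes may share signal.

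The upstream genes of the response changed in fewer of their members. Of 18 nucleic acid sensors and adaptors tested, 6 were higher and 0 lower, and the median was 0.28. Of the 18, 2 were well above background on only 1 of the 48 h arrays. TLR3, the endosomal sensor of double-stranded RNA, stood at -5.03 and -2.24 at 48 h and at -5.24 and -4.11 at 96 h, a 48 h difference of 2.80 (spot standard error 0.23). IFIH1, which encodes the RNA sensor MDA5, stood at 0.83 and 2.91 at 48 h and at 0.50 and 1.37 at 96 h. IFI16 differed by 1.98, RIGI by 1.73 and EIF2AK2, the kinase PKR, by 1.03. The inflammasome sensor of DNA AIM2 was well above background with ALKBH3 shRNA at 48 h alone, with a measured difference of 2.08.

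Of 24 genes for interferon signalling and its regulators tested, 4 were higher and 0 lower. Among them were USP18 (1.65), which removes ISG15 from proteins, and IRF7 (1.01), a transcription factor that drives interferon genes. USP18 stood at 0.12 and 1.77 at 48 h and at -0.26 and 0.25 at 96 h, while STAT2 differed by 0.71 and 0.10. Of 17 interferon genes 5 could be tested, 2 of them well above background on only 1 of the 48 h arrays, and 3 were called. IFNB1, interferon-beta, was well above background only with ALKBH3 shRNA at 48 h, at -7.62 and -5.45 at 48 h and -7.51 and -6.99 at 96 h, a 48 h difference of at least 1.40. IFNL1, of the lambda interferons, stood at -6.27 and -5.17 at 48 h and at -6.40 and -5.80 at 96 h. IFNL2 stood at -4.35 and -3.03 at 48 h and at -4.33 and -4.25 at 96 h, and since IFNL2 and IFNL3 are near-identical its probe may read both. The control arrays at both times were not well above background for IFNB1, so its difference is known only as a bound. IFNB1 entered the tested set through the ALKBH3 shRNA array, so the count of 3 partly reflects that filter. The median spot standard error of the 5 genes at 48 h was 0.40, beside differences of 1.09 for IFNL1 and 1.32 for IFNL2.

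Genes of MHC class I presentation shifted together with small sizes. Of 21 tested 2 were higher and 0 lower, and 20 of the 21 differences were larger at 48 h than at 96 h, and the medians were 0.37 and -0.03. The immunoproteasome subunit genes PSMB8 and PSMB9 differed by 1.20 and 1.11, and the peptide transporter genes TAP1 and TAP2 by 0.97 and 0.99. PSMB9 stood at 0.35 and 1.46 at 48 h and at -0.02 and -0.18 at 96 h. HLA-B, HLA-C and B2M differed by 0.78, 0.78 and 0.74 at 48 h and by -0.08, 0.15 and 0.19 at 96 h. HLA genes are similar in sequence, and their probes may share signal.

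Of 19 chemokine genes tested 5 were higher and 0 lower at 48 h, with a median of 0.51. However, 5 of the 19 were well above background on only 1 of the 48 h arrays. Such genes enter the tested set through the array where they are brighter, as CXCL10 and CCL20 did through ALKBH3 shRNA. The count and the median of the list therefore partly reflect that filter. CXCL9, CXCL10 and CXCL11, ligands of the same receptor, CXCR3, differed by 1.09, 2.84 (with a dim control array) and 1.96 at 48 h. At 96 h CXCL9 had the opposite direction, at -5.46 and -6.23 with the ALKBH3 shRNA array not well above background, while CXCL11 was at least 0.72 higher with ALKBH3 shRNA. CXCL8, which draws neutrophils, stood at -3.77 and -2.74 at 48 h and at -4.74 and -3.77 at 96 h. CCL20 was well above background only with ALKBH3 shRNA, with a difference of at least 1.70 at 48 h. Of 36 cytokine and cytokine receptor genes tested 10 were higher and 2 lower. LTB, which encodes lymphotoxin-beta, stood at -4.13 and -2.20 at 48 h and at -4.42 and -2.36 at 96 h. IL7R, the receptor chain for interleukin-7, stood at -2.86 and -1.03 at 48 h and at -1.39 and -0.35 at 96 h. IL1B and CSF3 were lower, by -1.39 and -1.17. IL1B, the inflammatory cytokine interleukin-1 beta, stood at 1.58 and 0.19 at 48 h and at 0.72 and -0.38 at 96 h, so both ALKBH3 shRNA arrays were below both control arrays. Of 26 genes for NF-kB subunits and targets 0 were called in either direction, and PLAU (0.84) and BIRC3 (0.71) were the highest. As 2.12% of all genes were called, 0 of 26 is near that background. Of the 26 differences 18 were positive, with a median of 0.16.

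**Figure D2:**
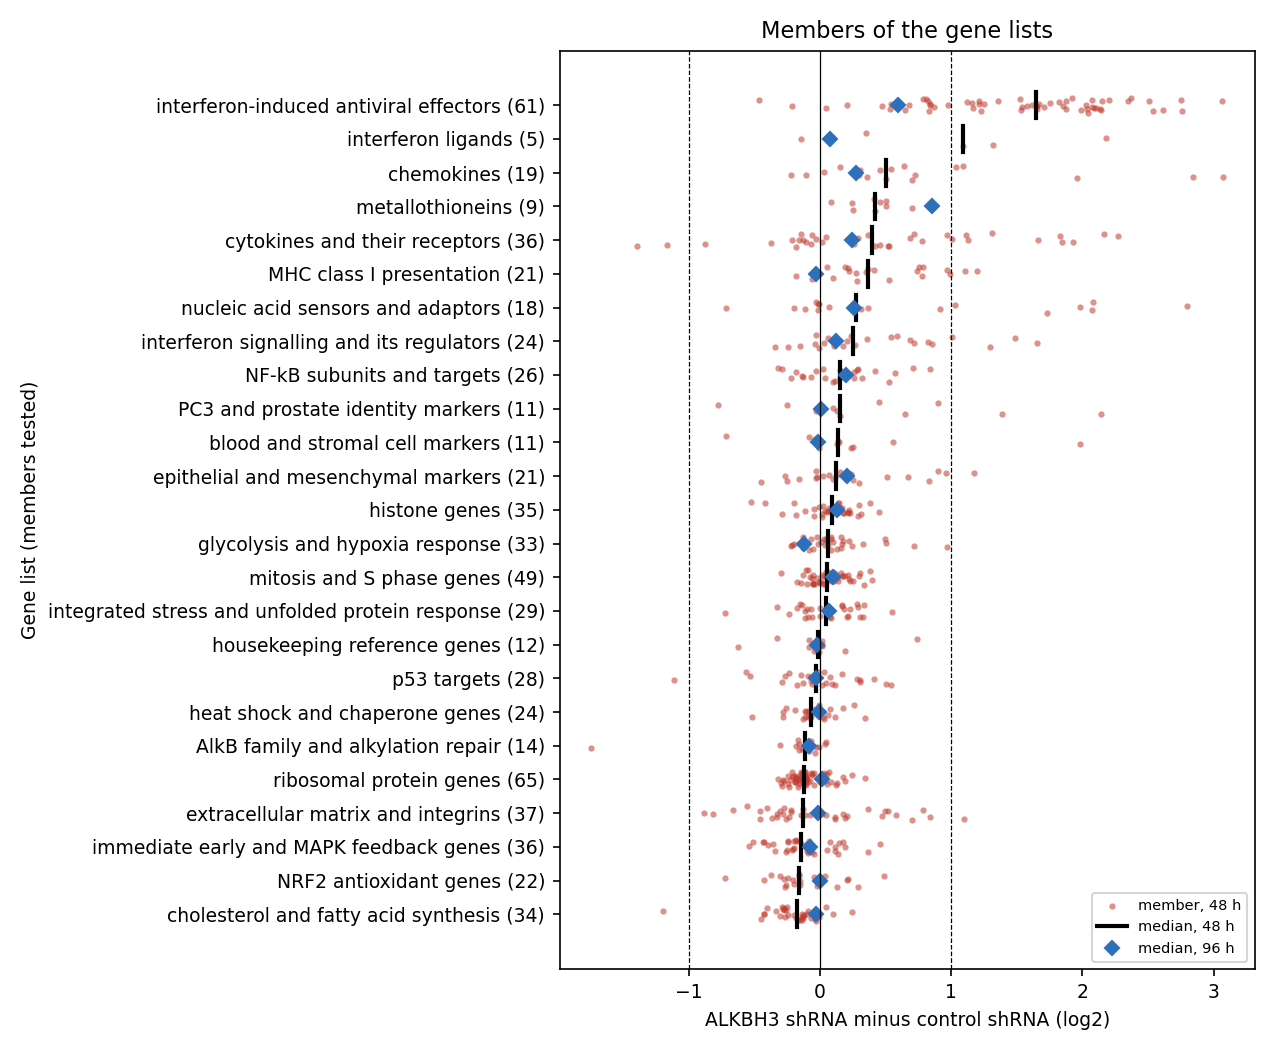
Each red point is a tested member of a gene list with its measured 48 h difference (log2, ALKBH3 shRNA minus control shRNA) on the x axis, black bars mark the list's median at 48 h and blue diamonds its median at 96 h, and dashed lines mark a 2-fold change. The black bar of the antiviral effectors lies at 1.64 and their diamond at 0.59, those of MHC class I genes at 0.37 and -0.03, and those of metallothioneins at 0.42 and 0.85, while growth, stress and housekeeping lists lie near 0.

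Most lists for growth, stress and metabolism held 0 or 1 called gene, and 2.12% of all genes were called in either direction, so counts this low are near the background for lists of this size. In mitosis and S phase (49 genes), the integrated stress and unfolded protein response (29), NRF2 antioxidant genes (22), ribosomal protein genes (65), histone genes (35) and immediate early genes (36), 0 genes were called at 48 h. Of 28 p53 target genes 1 was called, ZMAT3, which was lower by -1.11. Of 34 genes of cholesterol and fatty acid synthesis 31 had a negative difference, with a median of -0.17, and 1 of the 34 was called, as lower. Over all genes 7174 of 14914 differences were positive. Other lists also leaned slightly down: ribosomal protein genes (52 of 65 negative, median -0.12), NRF2 genes (16 of 22, -0.16) and immediate early genes (26 of 36, -0.14). Mitosis and S phase genes leaned slightly up (33 of 49 positive, median 0.05). All 9 metallothionein genes tested were positive at 48 h with none called, their median was 0.42, and in 1 of the 9 the 48 h difference was the larger one. MT1X went from 3.60 to 4.11 at 48 h and from 3.15 to 4.15 at 96 h. The 12 housekeeping genes had a median of -0.01 and ranged from -0.62 for TFRC, the transferrin receptor, to 0.74 for B2M, with ACTB at 0.02 and GAPDH at -0.08. Of 21 epithelial and mesenchymal genes 1 was called, the tight junction gene CLDN1 (1.18), and EPCAM, CDH1 and KRT7 differed by 0.96, 0.90 and 0.83.

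Several of the largest rises stood outside these lists, and 193 of the 271 higher genes were in none of them. CCR1, a chemokine receptor known from leukocytes, stood at -6.38 and -2.64 at 48 h and at -8.39 and -5.84 at 96 h. Its 48 h difference of 3.74 (spot standard error 0.37) was the largest among genes measured on both arrays. In the authors' table and with normexp background correction it was 2.59 and 1.95, below RSAD2 at 3.08 and 3.02, and the control array at 96 h was not well above background. HSH2D, an adaptor protein of lymphocytes, stood at -2.13 and 0.89 at 48 h and at -3.08 and -1.02 at 96 h, and a further probe of it differed by 0.88 at 48 h and 0.08 at 96 h. CD274, which encodes the immune checkpoint ligand PD-L1, stood at -6.34 and -3.74 at 48 h and at -6.64 and -5.03 at 96 h, and its 48 h difference of 2.61 was 1.65 in the authors' table and 1.18 with normexp. All 3 genes were higher in ALKBH3 shRNA at both times, and the 48 h array with ALKBH3 shRNA had the highest of the 4 signals.

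CSF2, which encodes the growth factor GM-CSF, had the larger difference at 96 h, since it stood at -3.96 and -1.69 at 48 h and at -4.55 and -1.66 at 96 h. MGP, an inhibitor of calcification, stood at -6.16 and -3.95 at 48 h and at -7.71 and -4.94 at 96 h. The MGP control array at 96 h was not well above background, which gave a 96 h difference of at least 1.56 beside 2.20 at 48 h. ESPNL, TRANK1 and SLAMF7 differed by 2.59, 2.27 and 2.25 at 48 h and by 1.65, 1.07 and 2.06 at 96 h. Of genes on a bound, TRIM54, VGLL1, ITM2A and ETV7 were at least 2.73, 2.21, 2.17 and 2.13 higher. These bounds hold for the main processing only, and that of ETV7 equals its measured difference. In the authors' table the 4 genes differed by 3.48, 1.56, 1.60 and 1.19. With normexp background correction they differed by 1.54, 0.84, 0.89 and 0.72, so that VGLL1, ITM2A and ETV7 were under 2-fold. TRIM54, a muscle RING finger gene, stood at -8.64 and -4.12 at 48 h and at -4.28 and -3.82 at 96 h, so that the control array at 48 h stood apart from the other 3 arrays.

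**Figure D3:**
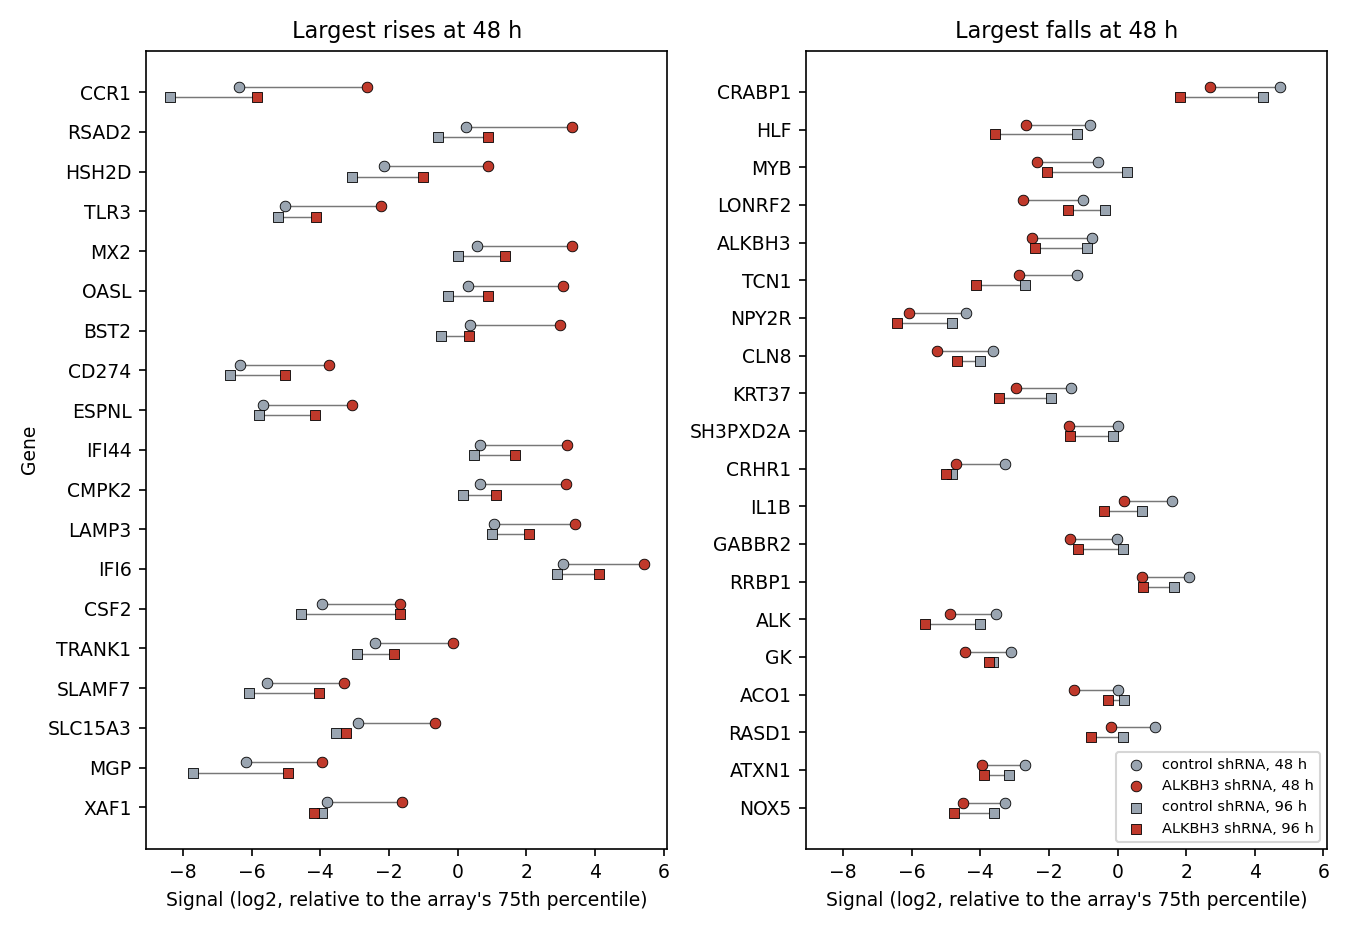
Signals (log2, relative to the 75th percentile of the array) of 19 of the 20 genes with the largest rises (left) and of the 20 with the largest falls (right) at 48 h, among genes well above background on both 48 h arrays; circles are 48 h arrays, squares 96 h arrays, grey control shRNA and red ALKBH3 shRNA, and a line joins both arrays of a time. For most rises the red circle lies farther right than the red square, as for RSAD2 at 3.32 and 0.88, whereas CSF2 had -1.69 and -1.66.

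Many of the higher genes were neighbours on a chromosome. In RefSeq gene order, 56 of the 271 formed 24 runs of adjacent tested genes, 6 of them of 3 or more. The 45 lower genes formed 0 runs, but they are only 0.302% of the genes tested, beside 1.82% for the higher genes. How many runs such counts would give by position alone was not worked out, so the directions cannot be compared in this respect. IFIT2, IFIT3, IFIT1B, IFIT1 and IFIT5 on chromosome 10 were all called, with IFIT3 highest at 2.09, OAS1, OAS3 and OAS2 on chromosome 12 ranged from 1.21 to 1.87, and PARP9, DTX3L and PARP14 on chromosome 3 from 1.16 to 1.36. APOL3, APOL4 and APOL2 on chromosome 22, apolipoprotein L genes, ranged from 1.22 to 1.28 at 48 h. At 96 h APOL4 and APOL2 differed by 0.36 and 0.04, and APOL3 was not well above background on either array. The subunit genes SCNN1G and SCNN1B of the epithelial sodium channel on chromosome 16 differed by 1.75 and 1.35. Genes within such families can be similar in sequence, and their probes may share signal.

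The lower genes were fewer and smaller in size, and 40 of the 45 were in none of the lists. CRABP1, a carrier of retinoic acid in the cytoplasm, stood at 4.73 and 2.69 at 48 h and at 4.25 and 1.82 at 96 h, and its other probe differed by -1.95 at 48 h. HLF, a transcription factor of the PAR bZIP family, stood at -0.81 and -2.68 at 48 h and at -1.18 and -3.57 at 96 h. MYB, a transcription factor of progenitor cells, stood at -0.58 and -2.34 at 48 h and at 0.27 and -2.05 at 96 h. For all 3 both ALKBH3 shRNA arrays lay below both control arrays, and the 96 h difference was the larger, at -2.42, -2.39 and -2.32.

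LONRF2, TCN1, KRT37 and SH3PXD2A were lower by -1.74, -1.70, -1.60 and -1.43 at 48 h and by -1.08, -1.43, -1.52 and -1.25 at 96 h. TCN1, a vitamin B12-binding protein, differed also between the times, from -1.18 to -2.69 with control shRNA. A further LONRF2 probe differed by -0.66. RRBP1, a ribosome-binding protein of the endoplasmic reticulum, stood at 2.08 and 0.70 at 48 h and at 1.66 and 0.75 at 96 h. HSPG2, which encodes the basement membrane proteoglycan perlecan, differed by -1.19 and -1.25. ACO1, the iron-regulated cytosolic aconitase, stood at 0.02 and -1.27 at 48 h and at 0.19 and -0.27 at 96 h, a smaller difference at the later time. The receptor genes GABBR2 and ALK differed by -1.39 and -1.35 at 48 h and by -1.31 and -1.61 at 96 h.

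The 48 h differences were then set beside those at 96 h. Of the 271 higher genes 80 were 2-fold higher at 96 h too, 103 were smaller but differed by at least 0.32, 30 had a 96 h difference under 0.32 or reversed, with both 96 h arrays well above background (0.201% of genes tested), and 58 could not be placed because a 96 h array was not well above background. The median of the 271 was 1.35 at 48 h and 0.86 at 96 h, and 230 of them were larger at 48 h. Since these genes were selected by their size at 48 h, the mirror selection is given beside it. At 96 h 168 of the same 14914 genes were higher (1.13%). Their median was 1.22, beside 0.96 for the same genes at 48 h, and 22 of the 161 that could be judged (13.7%) were under 0.32 at 48 h, beside 30 of 213 (14.1%) in the first direction. Among genes that could be judged, the share absent at the other time was thus about the same both ways. The mirror is not symmetric, since the genes tested and their probes were chosen by signal on the 48 h arrays. In the mirror 7 of the 168 genes could not be placed, beside 58 of the 271 in the first direction. The shares therefore do not show that differences were lost equally both ways. Of the 45 lower genes 21 were 2-fold lower at 96 h, 19 smaller, 2 absent (0.0134%) and 3 unmeasured. In the mirror, 9 of 60 genes lower at 96 h (0.429% called) were absent at 48 h.

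**Figure D4:**
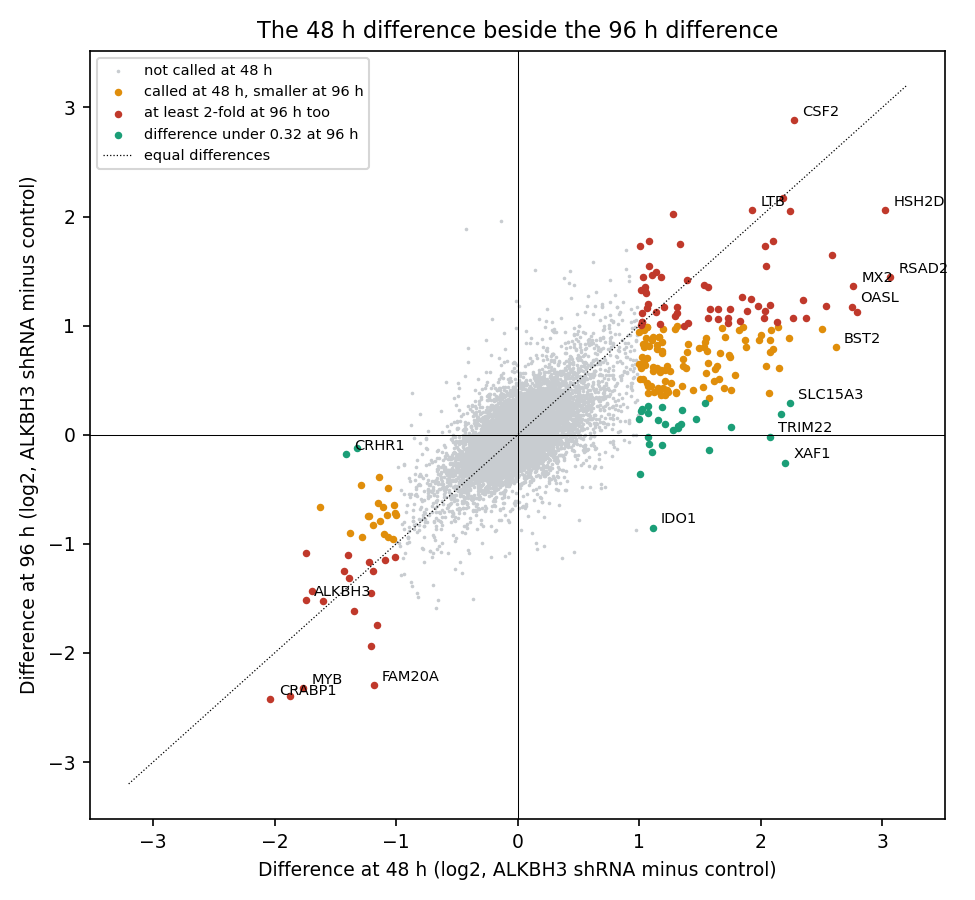
Each point is a gene well above background on all 4 arrays, with its difference (log2, ALKBH3 shRNA minus control shRNA) at 48 h on the x axis and at 96 h on the y axis; the dotted line marks equal differences. Red genes were 2-fold changed at both times, orange ones smaller at 96 h, and green ones under 0.32 at 96 h, such as TRIM22 at 2.08 and -0.02; most called points on the right lie below the line and CSF2 lies above it.

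The 30 higher genes without a 96 h difference ranged from just over 2-fold to 4.72-fold at 48 h and, on the log2 scale, from -0.85 to 0.30 at 96 h, and 27 of them exceeded 3 spot standard errors at 48 h. In 28 of the 30 the signal with ALKBH3 shRNA was lower at 96 h than at 48 h, with a median change of -1.21, and the control signals changed by a median of -0.02. The control array was higher at 96 h than at 48 h for 14 genes, for 5 of them by 2-fold or more. Because the arrays of each time lay on a slide of their own, these changes with time compare slides too, and 14 of the 30 had a 48 h control signal under -4, near background.

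SLC15A3, a transporter of peptides in lysosomes, stood at -2.90 and -0.66 at 48 h and at -3.53 and -3.24 at 96 h. TNFSF10, which encodes the death ligand TRAIL, stood at -2.55 and -0.38 at 48 h and at -3.05 and -2.87 at 96 h, and its other probe differed by 2.13 and 0.07. TRIM22, an antiviral ubiquitin ligase, stood at -2.81 and -0.73 at 48 h and at -3.32 and -3.33 at 96 h. In all 3 genes the 48 h array with ALKBH3 shRNA stood alone, more than 2-fold above the other 3 arrays.

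XAF1, a pro-apoptotic interferon target, stood at -3.81 and -1.61 at 48 h and at -3.94 and -4.19 at 96 h. Its other probe differed by 1.87 at 48 h and by 0.28 at 96 h, so the probes differed in sign at 96 h. UBA7, the enzyme that activates ISG15, stood at -3.32 and -1.75 at 48 h and at -3.82 and -3.96 at 96 h. CASP1, the inflammasome protease, stood at -5.35 and -3.60 at 48 h and at -6.11 and -6.04 at 96 h. MMP13, a collagenase, stood at -0.41 and 1.13 at 48 h and at -0.40 and -0.10 at 96 h, again with 1 array above the other 3.

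LRRC31, KIAA1210 and SCNN1B had dimmer signals, between -6.72 and -4.19 on the 48 h arrays. SCNN1B stood at -5.97 and -4.62 at 48 h and at -5.01 and -4.79 at 96 h, and KIAA1210 was not well above background with control shRNA at 48 h, so for both the low array was the 48 h control. Of the remaining members, named here after their values were seen, APOL6, APOL2 and PARP14 differed by 1.35, 1.28 and 1.16 at 48 h and by 0.09, 0.04 and 0.13 at 96 h. IDO1, the tryptophan-degrading enzyme induced by interferon-gamma, stood at -0.18 and 0.93 at 48 h and at -0.58 and -1.44 at 96 h. IDO1 was therefore higher with ALKBH3 shRNA at 48 h (1.11) and lower at 96 h (-0.85).

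The 5 genes of the interferon, sensor and MHC class I lists among the 30 were XAF1, TRIM22, PARP14, PSMB9 and IFNL2. Of all 271 higher genes 58 were in these lists, a similar share. The lists are not complete, since IDO1 and UBA7 among the 30 are outside them. The ISRE core was present in 4 of 20 promoters of the 30 genes (20%) and in 9 of 61 promoters of genes 2-fold higher at both times (14.8%), against 3.02% of all genes tested. The 2 lower genes without a 96 h difference were CRHR1, a receptor of corticotropin-releasing hormone, and GK, glycerol kinase. CRHR1 stood at -3.29 and -4.70 at 48 h and at -4.81 and -4.99 at 96 h, and its other probe differed by -0.09 at 48 h. GK stood at -3.11 and -4.43 at 48 h and at -3.62 and -3.74 at 96 h, and its other probe by -0.64 and -0.52.

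**Figure D5:**
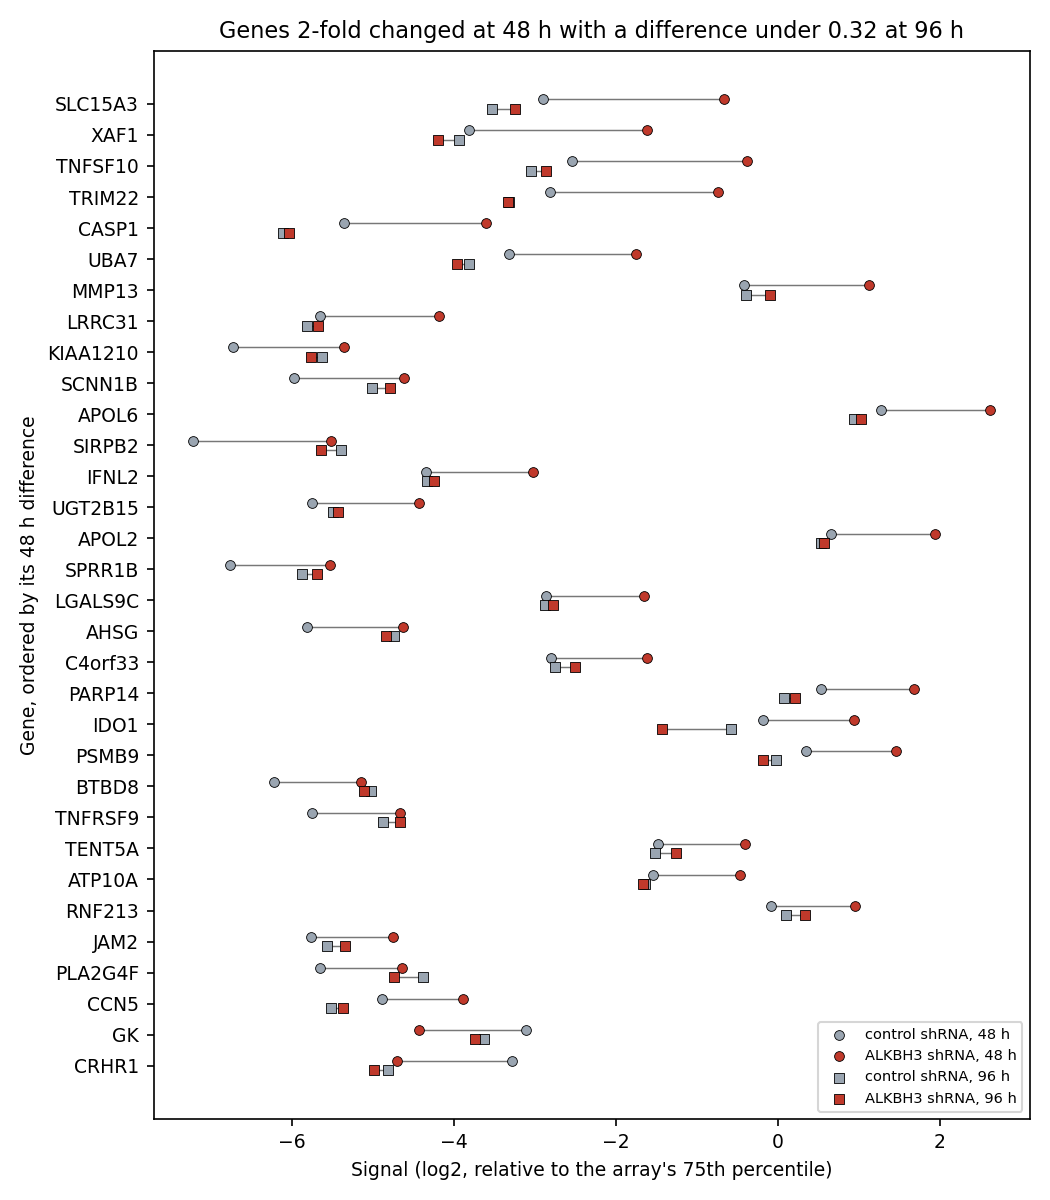
Signals (log2, relative to the 75th percentile of the array) of the 30 higher and 2 lower genes whose difference was under 0.32 at 96 h; circles are 48 h arrays, squares 96 h arrays, grey control shRNA and red ALKBH3 shRNA, and a line joins both arrays of a time. For SLC15A3, TNFSF10 and TRIM22 the red circle stands apart from the other 3 points, whereas for SCNN1B the grey circle is the low one, at -5.97.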

How the data were processed

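The deposited spot intensities were made by Agilent image software (Feature Extraction 10.7.3.1 per the file headers), which subtracted each array's background and normalized nothing across arrays. The authors also deposited a log2 table normalized between the 4 arrays, used here as an alternative. Spots flagged as outliers (180 to 379 per array) were removed. Values were log2 of the processed intensity minus the array's 75th percentile over non-control probes, averaged over spots. Accessions were named through the RefSeq table of GRCh38.p14 (24910 of 34127 probes). A gene was its brightest probe among those well above background, in at least 0.5 of their spots, on 1 or more 48 h arrays. Spot noise came from 999 probes with replicate spots in 10 signal bins. A small number of arrays limits the precision, and no test across samples was run. Python 3.11.15 (numpy 2.4.6, pandas 2.3.3, matplotlib 3.10.9) and R 4.3.3 with limma 3.58.1 (normexp only) were used. The 48 h calls were tested on simulated data, with changes placed in genes well above background on all arrays and above -4. All of these changes were larger than the 2-fold cutoff, and only spot noise was added. The simulation therefore could not show how calls near the cutoff behave. Changes in dimmer genes, noise of cultures or labelling, and absence at 96 h were not tested in this way.

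The genes named are the 20 largest rises and falls, the 5 largest bounds each way, the 10 largest of each direction absent at 96 h (a difference under 0.32, log2, in that direction, with both arrays well above background), ALKBH3, the 5 markers, and the leading 2 to 4 members of a list described. Others, named after their values were seen, bear on a list, a threshold or a chromosomal run. Members, the 25 gene lists and motifs were chosen with earlier results of these data known. Alternatives were other centring, quantile normalization, normexp with an offset of 50, the authors' table, other filters, probe rules and cutoffs. The probes without a name, ChIP-seq and qRT-PCR data are not analysed here. The authors' own fold changes were not used. Results for some genes under the naming rule are not reported here.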

Additional observations from a re-analysis of the deposited data

Results flagged for a closer look

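The genes below were higher with ALKBH3 shRNA at 48 h and lower at 96 h, each time measured within its own slide. The difference between the times was not tested, since each combination of shRNA and time has a single array, and slide and time cannot be told apart. IDO1 had a log2 difference of 1.11 at 48 h and -0.85 at 96 h (spot standard error 0.04 at both). GBP4, a guanylate-binding protein, had 0.97 and -0.87, and GBP2 had 0.53 and -0.47. IRF1, a transcription factor, had 0.69 and -0.49, and PSMB9 had 1.11 and -0.16, the last near its spot standard error of 0.12. PLA2G4F, a phospholipase gene, had 1.01 and -0.36, and XAF1 had 2.20 and -0.25, where another XAF1 probe had 0.28 at 96 h. The 96 h values of PLA2G4F and XAF1 were also near their spot standard errors of 0.29 and 0.23, so their direction at 96 h is uncertain. For PLA2G4F the low array was the 48 h control, at -5.65. Its other signals were -4.64 with ALKBH3 shRNA at 48 h, and -4.38 (control) and -4.74 (ALKBH3 shRNA) at 96 h.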

How the results depend on the processing

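ALKBH3 kept its 48 h difference under every alternative, between -1.89 and -1.73, as did the median of the antiviral effectors, between 1.60 and 1.66, and no named gene changed direction. The counts moved with the treatment of dim probes and with the cutoffs. With normexp the higher and lower genes numbered 119 and 19, and the genes absent at 96 h 18 higher and 1 lower. The authors' table gave 169 higher genes, and no filter on dim probes gave 646 higher and 167 lower. A 1.5-fold cutoff gave 797 higher and 309 lower, with 175 and 51 absent at 96 h, and a 3-fold cutoff gave 87 and 9, with 5 and 0 absent. With absence set below 1.5-fold 63 higher and 5 lower genes were absent, and below 1.1-fold 18 and 1. Averaging the probes of each gene left 0 lower genes absent. Of 57 named genes, 18 were under 2-fold with normexp, 8 in the authors' table and 7 after averaging probes, among them CASP1, LRRC31, SCNN1B, CRHR1 and GK. Each of these counts includes 3 genes whose measured difference was already under 2-fold in the main processing. The alternative that uses only probes named by RefSeq is how the values were made, so probes without a name were instead kept as features of their own, a choice made after seeing the data, which gave 314 higher and 58 lower genes. No paired analysis was possible because the 48 h comparison is 1 array against 1 array and the labels carry no replicate numbers; pairing arrays by time would estimate a difference over both times and was not run. With normexp the differences of CXCL10, TRIM54, ESPNL, SLAMF7 and MGP were 1.71, 1.54, 1.57, 1.32 and 1.03. Those of VGLL1, ITM2A and ETV7 were under 2-fold, at 0.84, 0.89 and 0.72. Genes near background, with signals under about -5, have the least certain differences.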
